A study of Mus musculus with 18 samples.

Results

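The NF-κB family and its IκB inhibitors were followed in CD4+ T cells through 10 genes, the 5 that encode the DNA-binding subunits (*Nfkb1*, *Nfkb2*, *Rel*, *Rela* and *Relb*) and 5 that encode IκB proteins (*Nfkbia*, *Nfkbib*, *Nfkbid*, *Nfkbie* and *Nfkbiz*). They were chosen by gene name, and their rows were found by Ensembl identifier in all 18 count files, which list 37991 genes each. All 10 passed the filter on low counts and were among the 17240 genes tested.

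RNA-seq libraries were made from splenic CD4+ T cells, enriched by removal of other cells, of Tg4-H2u mice. A transgene gives these T cells a receptor for the Ac1-9 peptide of myelin basic protein (MBP), and there were 3 biological replicates in each of 6 groups. Naive cells (N) came from mice that had received PBS on the dosing schedule, and tolerized cells (T) from mice that had received rising subcutaneous doses of 4Y, a variant of the MBP peptide. Cells were taken 2 h after a last injection of PBS (N0 and T0) or of 4Y peptide (NAg and TAg), or were stimulated in culture for 2 h with PMA and calcium ionophore (NPI and TPI). All groups share the strain and the transgene, mice of both sexes were used, N is a predominantly and not a purely naive population, and the antigen was met in the mouse whereas PI was applied to purified cells. The comparisons ask how the T cell state alters the response to antigen, and whether PI, which acts downstream of the receptor, gives another answer.

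NF-κB proteins bind DNA as dimers and are held inactive in the cytoplasm by the classical inhibitors IκBα, IκBβ and IκBε, until TCR and CD28 signals pass through PKCθ to the IκB kinase, which marks these inhibitors for destruction. Several family members are themselves NF-κB targets, so that activation is followed by synthesis of new subunits and of new inhibitor. The atypical IκB proteins IκBNS and IκBζ are nuclear and modify transcription by bound dimers, and in T cells c-Rel is known for its part in *Il2* transcription and in the development of regulatory T cells.

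Total counts per library ran from 10758571 to 13559974 in N0, NAg, T0 and TAg, and from 14895843 to 24119489 after PI, and the lowest raw count of a member in any library was 211, for *Nfkbib* in N0. All 8 markers of CD4+ T cells were detected in every group, and their summed normalized counts ran from 13440.2 in the lowest NAg library to 53267 in the highest NPI library. Mean sums were 27087 in N0, 13891 in NAg, 49903 in NPI, 23920.5 in T0, 18192 in TAg and 50744 in TPI. The markers thus moved with the stimulus, and detection in every group does not show an equal T cell content. Reads of Y-linked genes numbered 5111 or more in every NPI and TPI library, in 2 of 3 T0 libraries and in 1 TAg library, and 18 or fewer in all others, so by the design sex and stimulus cannot be told apart between NPI and N0 or NAg. The 9 neutrophil markers were all higher in T0 than N0 and in TAg than NAg, with summed normalized counts of 60.5 to 167 in N0, 137 to 367 in NAg, 1749 to 3097 in T0 and 2240.2 to 3955 in TAg. After PI they summed to 64.5 to 172 in NPI and 397 to 676 in TPI. Macrophage and monocyte markers summed to 545 to 782 in N0, 566 to 2131 in NAg, 1339.9 to 1713 in T0, 961 to 1411 in TAg, 295 to 409 in NPI and 575 to 689.7 in TPI. Erythroid markers summed to 34.5 to 216 in N0 and 238 to 2322 in T0. The regulatory T cell markers *Foxp3* and *Ikzf2* summed to 890.5 to 2057 in N0, 1375 to 3178 in NAg, 2180 to 2371 in NPI, 4357 to 6276 in T0, 7187 to 7985 in TAg and 6898 to 8575 in TPI. The part of these cells in the results was not tested beyond the fits with marker scores given with the results. These scores were made from erythroid, macrophage, monocyte and neutrophil markers. Markers of regulatory T cells and of CD4+ T cells entered no fit. As in any bulk sample, fewer cells that express a gene and less RNA per cell cannot be told apart.

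In the NCBIM37 (mm9) annotation, *Relb*, *Nfkbib* and *Nfkbid* lie on chromosome 7, *Nfkb2* and *Rela* on chromosome 19, and the others on chromosomes 3 (*Nfkb1*), 11 (*Rel*), 12 (*Nfkbia*), 16 (*Nfkbiz*) and 17 (*Nfkbie*). All are protein coding, and their positions in that build are given with each gene. Merged exons run from 1577 bases for *Nfkbia* to 5018 for *Nfkbiz*. *Nfkbib* shares 42 exonic bases with *Sirt2* on the opposite strand and *Nfkb2* shares 4 with *Psd*, so that their counts, *Nfkbib* in particular, are uncertain to that extent.

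RefSeq promoter windows (GRCm38.p6, from 250 bases upstream to 50 downstream of a start site) were at hand for 7 of the 10 genes, and *Nfkb1*, *Relb* and *Nfkbiz* had no entry. The windows were searched on both strands for the 10-base κB consensus, the sequence that NF-κB dimers bind. A match was found in windows of 5 of these 7 genes, against 5.14% of the 27025 genes with a window, and none in those of *Rela* and *Nfkbib*. The matches are printed because the genes rose together after stimulation, and a match is a string of letters and not a measured binding site. For each gene 1 match is given in capitals with its flanks, read along the gene's strand. It is the nearest upstream of a listed start site or, for *Rel*, the one of an overlapping pair that reads as the consensus on both strands.
Nfkbia: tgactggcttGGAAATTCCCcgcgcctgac
Nfkbie: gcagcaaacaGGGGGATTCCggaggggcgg
Rel: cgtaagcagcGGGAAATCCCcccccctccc
Nfkbid: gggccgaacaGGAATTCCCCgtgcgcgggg
Nfkb2: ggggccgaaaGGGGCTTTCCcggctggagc
These stretches lie at chr12:55492657-55492686 on the minus strand for *Nfkbia*, chr17:45555584-45555613 for *Nfkbie*, chr11:23771042-23771071 on the minus strand for *Rel*, chr7:30422215-30422244 for *Nfkbid* and chr19:46304716-46304745 for *Nfkb2*. The matches start 29, 106, 92, 181 and 11 bases upstream of the start site, in that order. The other match in *Rel* is on the antisense strand and starts 91 bases upstream.

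All 10 genes were higher after either stimulus in both cell states. Normalized counts, which are counts scaled by library size with edgeR's TMM method, were compared in one edgeR quasi-likelihood model with 6 group means, and every adjusted p is a Benjamini-Hochberg value over the 17240 tested genes, with a gene called at an adjusted p under 0.05. Errors of log2 differences are standard errors, and those of levels are SD with n = 3. In NAg against N0, 10 of 10 genes were higher, where 32.1% of all tested genes were, and 10 rose at least 2-fold, against 19.5%. In TAg against T0, 10 were higher and 9 of them at least 2-fold, against 29.9% and 15.4% of all genes. In NPI against N0 and in TPI against T0, 10 were higher and all at least 2-fold, against 28.6% and 15.7% of all genes in naive cells and 32.0% and 18.9% in tolerized cells. The median log2 fold change of the 10 genes was 3.03 for NAg, 2.38 for TAg, 2.71 for NPI and 3.98 for TPI, while the median over all tested genes lay between -0.10 and 0.00. The largest adjusted p of any member was 2.17e-05, for *Nfkbie* in TAg. Stimulated replicates did not overlap resting ones for any member, as was the case for 68.1% of all genes in NAg, 64.5% in TAg, 66.4% in NPI and 72.5% in TPI. The antigen and PI comparisons share their resting libraries. No group was cultured without PI. In NPI against N0 and TPI against T0, and in values built on them, PI and culture therefore cannot be told apart. With Y-linked reads as a covariate, all 10 stayed called in NPI, with log2 fold changes of 1.90 to 5.91, and in TPI against T0, with 2.56 to 6.81. Only T0 and TAg hold libraries both with and without Y-linked reads, so the covariate's effect came from tolerized cells. For NPI against N0 this fit carries that effect over and cannot separate sex from PI in naive cells.

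**Figure D1:**
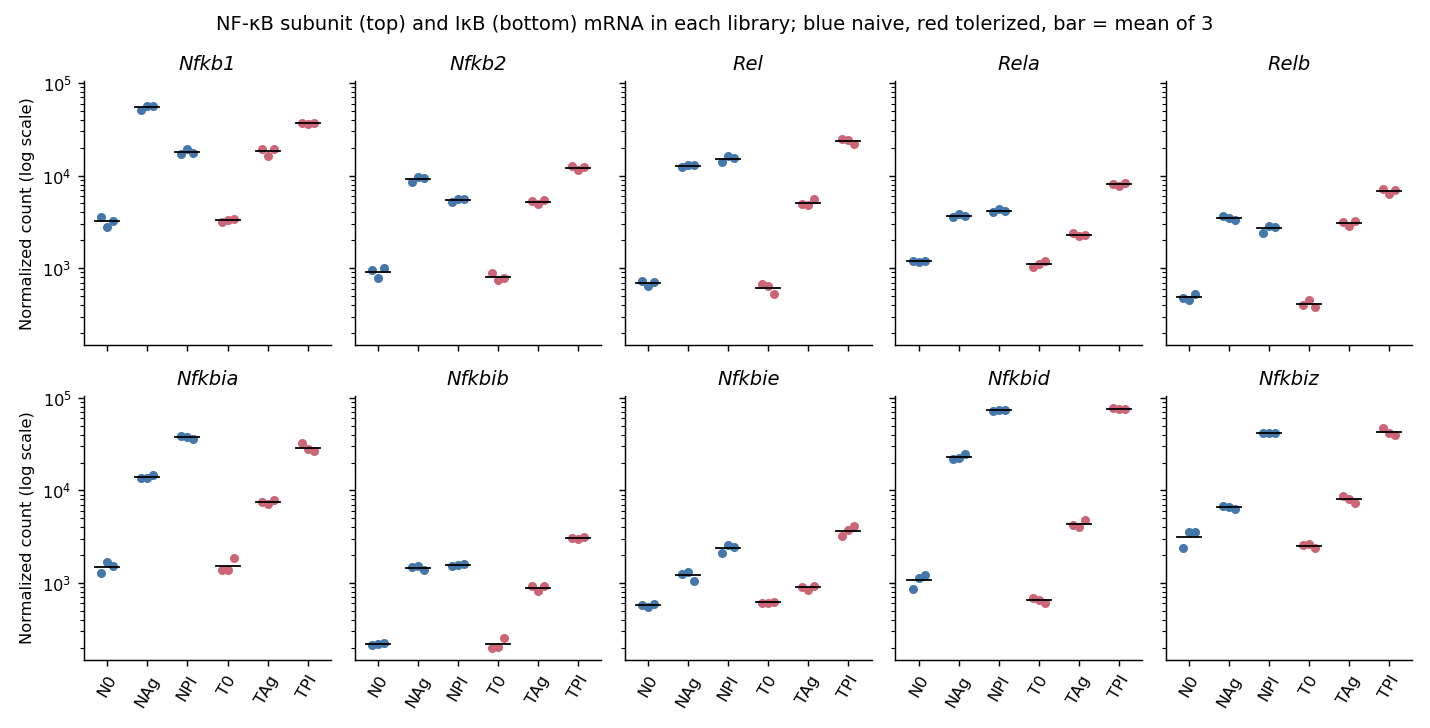
Normalized counts of the 10 genes in each of the 18 libraries on a log scale, grouped as N0, NAg, NPI (blue) and T0, TAg, TPI (red), with a bar at the mean of 3. Resting libraries lie lowest in every panel, NAg is the highest group for *Nfkb1* only, and TPI is the highest for 8 of the 10 genes.

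*Nfkb1* (ENSMUSG00000028163, chr3:135247619-135354511) encodes p105, the precursor of the p50 subunit. *Nfkb1* had normalized counts of 3617, 2761 and 3261 in N0, 50964, 56319 and 56852 in NAg and 16982, 19624 and 17540.4 in NPI. Tolerized cells had *Nfkb1* counts of 3176, 3319 and 3420.1 in T0, 19475, 16328 and 19228 in TAg and 37036, 36099.8 and 36951 in TPI. The 3 NAg libraries were the highest of all 18, TPI followed, and NPI and TAg overlapped. Antigen raised *Nfkb1* 17.0-fold in naive and 5.55-fold in tolerized cells, and PI 5.62-fold and 11.1-fold. It was 2.98-fold lower in TAg than NAg (log2 -1.58 ± 0.09, adjusted p = 4.26e-12) but 2.03-fold higher in TPI than NPI (log2 1.02 ± 0.09, adjusted p = 4.4e-09).

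*Nfkb2* (ENSMUSG00000025225, chr19:46379227-46386580) encodes p100, from which the p52 subunit of the alternative pathway is made. *Nfkb2* had normalized counts of 947, 781 and 997 in N0, 8507, 9605 and 9425 in NAg and 5175, 5593 and 5554 in NPI. Tolerized cells had *Nfkb2* counts of 883, 746 and 782 in T0, 5259, 4967 and 5464 in TAg and 12637, 11547 and 12455 in TPI. TPI was highest here and NAg next, while NPI and TAg again overlapped. The rise over rest was 10.1-fold in NAg, 6.51-fold in TAg, 5.99-fold in NPI and 15.2-fold in TPI. The difference between cell states was -0.81 ± 0.08 on the log2 scale after antigen (adjusted p = 5.01e-08) and 1.17 ± 0.08 after PI (adjusted p = 1.51e-10).

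*Rel* (ENSMUSG00000020275, chr11:23641514-23670970) encodes c-Rel, the subunit most closely tied to lymphocyte activation, and its fold changes were the largest of the subunits in all 4 responses, though in NAg those of *Nfkb1* and in TAg those of *Relb* were within the errors of it. *Rel* had normalized counts of 724, 648 and 709 in N0, 12515, 12867 and 12924 in NAg and 13973, 16183 and 15610.1 in NPI. Tolerized cells had *Rel* counts of 683, 637 and 532 in T0, 4919, 4825 and 5574 in TAg and 25041, 24501 and 21994 in TPI. No 2 stimulated groups overlapped, and they ran in the order TAg, NAg, NPI, TPI. *Rel* rose 18.4-fold with antigen and 22.0-fold with PI in naive cells, and 8.27-fold and 38.6-fold in tolerized cells. In TAg it was 2.50-fold lower than in NAg (log2 -1.32 ± 0.09, adjusted p = 3.58e-11), and in TPI 1.56-fold higher than in NPI (log2 0.64 ± 0.08, adjusted p = 1.67e-06).

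*Rela* (ENSMUSG00000024927, chr19:5637483-5648130) encodes p65, the partner of p50 in the classical dimer, and its mRNA responded least among the subunits. *Rela* had normalized counts of 1208, 1166 and 1191 in N0, 3585, 3851 and 3669 in NAg and 4053, 4371 and 4175 in NPI. Tolerized cells had *Rela* counts of 1019.8, 1108 and 1199 in T0, 2371, 2208 and 2300.1 in TAg and 8076, 7710.4 and 8395 in TPI. The groups ran in the same order as for *Rel*, without overlap outside rest. The fold changes over rest were 3.11 in NAg, 2.07 in TAg, 3.53 in NPI and 7.27 in TPI. *Rela* was 1.61-fold lower in TAg than NAg (adjusted p = 1.95e-08) and 1.92-fold higher in TPI than NPI (adjusted p = 1.09e-10).

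*Relb* (ENSMUSG00000002983, chr7:20191566-20214787), whose product pairs with p52 in the alternative pathway, was the 1 subunit gene whose antigen response did not pass the test of a difference between cell states. *Relb* had normalized counts of 476, 451 and 532 in N0, 3639, 3456 and 3284 in NAg and 2393, 2883 and 2802 in NPI. Tolerized cells had *Relb* counts of 402, 458 and 377 in T0, 3117, 2885 and 3220.1 in TAg and 7132, 6356 and 6908 in TPI. Replicates of TAg and NAg did not overlap, yet the gap between them was small. *Relb* rose 7.11-fold in NAg and 7.46-fold in TAg, and the difference TAg to NAg was -0.17 ± 0.08 on the log2 scale (95% interval -0.34 to -0.00075, adjusted p = 0.106). This difference in level passed the threshold with DESeq2 (-0.20, adjusted p = 0.0431), with DESeq2's size factors in edgeR (0.0466) and with Y-linked reads as a covariate (0.0426). The difference in response, tested as an interaction, was 0.07 ± 0.12 (adjusted p = 0.761) and stayed uncalled under all 7 alternative analyses. After PI the gap was the widest of all 10 genes, with *Relb* 2.52-fold higher in TPI than NPI (log2 1.34 ± 0.08, adjusted p = 1.88e-11).

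**Figure D2:**
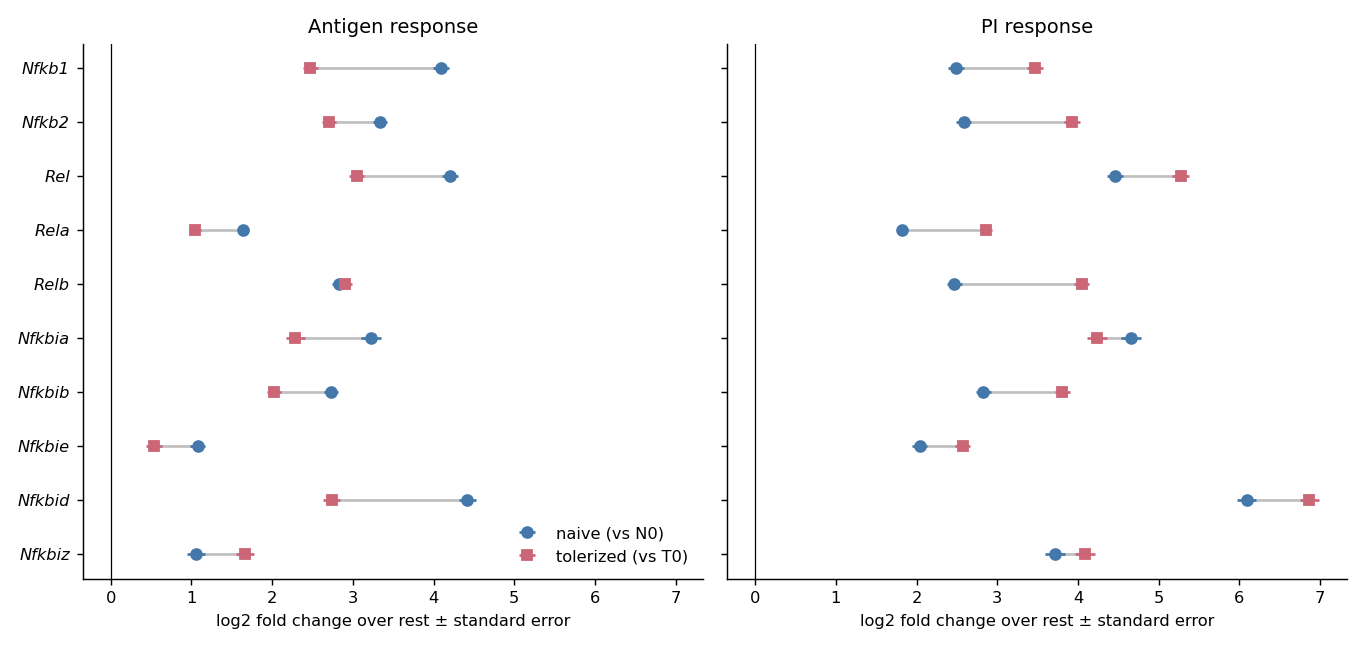
Log2 fold change over rest with its standard error for each gene, after antigen (left) and after PI (right), in naive (blue circles) and tolerized cells (red squares). After antigen 8 of the 10 red squares lie left of the blue circle, the exceptions being *Relb* and *Nfkbiz*, and after PI 9 lie right of it, the exception being *Nfkbia*.

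*Nfkbia* (ENSMUSG00000021025, chr12:56590398-56593634) encodes IκBα, the classical inhibitor that is destroyed and resynthesized fastest. *Nfkbia* had normalized counts of 1269.9, 1674 and 1510.3 in N0, 13686, 13471 and 14509.6 in NAg and 38648, 37279 and 36242 in NPI. Tolerized cells had *Nfkbia* counts of 1367, 1371 and 1879 in T0, 7530.0, 7047 and 7936 in TAg and 32404, 27700.2 and 26834 in TPI. PI gave higher counts than antigen in both cell states, and NPI stood above TPI, the reverse of the subunits. *Nfkbia* rose 9.35-fold in NAg, 4.88-fold in TAg, 25.2-fold in NPI and 18.8-fold in TPI. It was 1.85-fold lower in TAg than NAg (log2 -0.89 ± 0.11, adjusted p = 1.55e-06) and 1.29-fold lower in TPI than NPI (log2 -0.37 ± 0.11, adjusted p = 0.00962). The call after PI was lost without TPI replicate 3 (log2 -0.32, adjusted p = 0.0537) and with scores of erythroid, macrophage and neutrophil markers as covariates (log2 -0.29, adjusted p = 0.379).

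*Nfkbib* (ENSMUSG00000030595, chr7:29543270-29552531), which encodes IκBβ, had the lowest mean level per length of exon at rest. *Nfkbib* had normalized counts of 214, 220.3 and 223 in N0, 1479, 1526 and 1364 in NAg and 1515, 1560.3 and 1598 in NPI. Tolerized cells had *Nfkbib* counts of 197, 202 and 256 in T0, 926, 812 and 920.0 in TAg and 3053, 2989.8 and 3125 in TPI. TPI lay apart at the top, and NAg and NPI overlapped. The rise over rest was 6.64-fold in NAg, 7.11-fold in NPI, 4.06-fold in TAg and 14.0-fold in TPI. Between cell states the log2 difference was -0.72 ± 0.08 after antigen (adjusted p = 1.85e-07) and 0.97 ± 0.08 after PI (adjusted p = 8.33e-10).

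*Nfkbie* (ENSMUSG00000023947, chr17:45692665-45700118), which encodes IκBε, changed least with antigen among the 10 genes in tolerized cells. *Nfkbie* had normalized counts of 582, 551 and 587 in N0, 1248, 1324 and 1057 in NAg and 2107, 2539 and 2436 in NPI. Tolerized cells had *Nfkbie* counts of 609, 613 and 630.1 in T0, 910.4, 845 and 928 in TAg and 3199, 3711 and 4087 in TPI. None of the neighbouring groups overlapped, the highest N0 library lying just below the lowest T0 library. Its increase with antigen was 2.11-fold in naive and 1.45-fold in tolerized cells, and with PI 4.11-fold and 5.94-fold. *Nfkbie* was 1.35-fold lower in TAg than NAg (adjusted p = 0.00058) and 1.55-fold higher in TPI than NPI (adjusted p = 3.47e-06).

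*Nfkbid* (ENSMUSG00000036931, chr7:31206751-31213765) encodes IκBNS, an atypical nuclear IκB protein, and responded most to PI of all 10 genes. *Nfkbid* had normalized counts of 871, 1126 and 1223 in N0, 21972, 22233 and 24597 in NAg and 72066, 72969 and 74201 in NPI. Tolerized cells had *Nfkbid* counts of 688, 655 and 614 in T0, 4225, 4027 and 4801 in TAg and 77993, 75423 and 75202 in TPI. All 6 groups were separate, in the order T0, N0, TAg, NAg, NPI, TPI. *Nfkbid* rose 21.4-fold in NAg against 6.67-fold in TAg, and 68.1-fold in NPI against 117-fold in TPI. It was the member with the largest deficit in TAg, 5.27-fold below NAg (log2 -2.40 ± 0.10, adjusted p = 1.55e-14). In TPI and NPI its level differed by 0.06 ± 0.09 on the log2 scale, which did not pass the test (95% interval -0.13 to 0.25, adjusted p = 0.663).

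*Nfkbiz* (ENSMUSG00000035356, chr16:55811488-55839012) encodes IκBζ, the other atypical nuclear member, and responded far more to PI than to antigen. *Nfkbiz* had normalized counts of 2361, 3529 and 3533 in N0, 6776, 6573 and 6264 in NAg and 41329, 41257 and 41469 in NPI. Tolerized cells had *Nfkbiz* counts of 2554, 2667 and 2357 in T0, 8727, 8061 and 7249 in TAg and 47233, 41847 and 39676 in TPI. NPI and TPI overlapped at the top, and TAg lay above NAg, in contrast to the other 9 genes. *Nfkbiz* rose 2.08-fold in NAg, 3.17-fold in TAg, 13.2-fold in NPI and 17.0-fold in TPI. The excess of TAg over NAg was 1.23-fold (log2 0.29 ± 0.11, adjusted p = 0.0441), and this call was lost under 6 of 7 alternative analyses, with adjusted p between 0.0596 and 0.083, and in 4 of 6 fits that left out a library, namely NAg replicate 2 or 3 (0.0916 and 0.119) or TAg replicate 1 or 2 (0.163 and 0.0934). After PI the difference was 0.05 ± 0.11 (95% interval -0.18 to 0.29, adjusted p = 0.754).

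At rest, 1 gene of the family was called different between the cell states. In T0 against N0, *Nfkbid* was 1.64-fold lower in T0 (log2 -0.72 ± 0.10, adjusted p = 2.04e-05), where 12.0% of all tested genes were lower and 8.42% higher. The 9 others had log2 differences from -0.31 for *Nfkbiz* (adjusted p = 0.0564) to 0.11 for *Nfkbie* (adjusted p = 0.482). Further calls appeared when 1 library was left out, namely *Nfkbiz* without N0 replicate 1 (-0.49, adjusted p = 0.000288), *Nfkb2* without N0 replicate 2 (-0.28, adjusted p = 0.028) and *Relb* without T0 replicate 2 (-0.33, adjusted p = 0.0289). Replicates of T0 and N0 did not overlap for 2 of the 10 genes, *Nfkbid* and *Nfkbie*, as for 35.0% of all genes. With the marker scores as covariates, the *Nfkbid* difference was -0.64 (adjusted p = 0.239), in a fit that called 59 genes in all against 3519. With Y-linked reads as a covariate, 3 genes were called lower, namely *Nfkbid*, *Rel* (-0.34, adjusted p = 0.021) and *Relb* (-0.33, adjusted p = 0.0461).

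After antigen, 8 of the 10 genes were lower in TAg than NAg and 1 was higher, against 18.5% lower and 20.9% higher among all tested genes. *Nfkb1*, *Rel* and *Nfkbid* were at least 2-fold lower, as were 4.21% of all genes. The median log2 difference was -0.76 over the 10 genes and 0.01 over all tested genes. Replicates of TAg and NAg did not overlap for any of the 10, against 47.7% of all genes. With DESeq2's size factors, and with Y-linked reads as a covariate, 9 were lower and 0 higher. With the marker scores as covariates 8 remained called lower, while of the marker lists 9 of 9 neutrophil markers were higher in TAg than NAg, and of 9 macrophage and monocyte markers 7 were lower and 1 higher.

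The difference in response itself was tested as an interaction, (TAg against T0) against (NAg against N0). By this test the antigen response was smaller in tolerized cells for 8 genes and larger for 1. Among all tested genes the interaction was called negative for 7.09% and positive for 14.6%. For a gene that falls with antigen, a positive value can mean a weaker fall. These shares are therefore of signs and not of response sizes. The reduction was greatest for *Nfkbid* (log2 -1.68 ± 0.14) and *Nfkb1* (-1.62 ± 0.13) and least among called genes for *Nfkbie* (-0.54 ± 0.13, adjusted p = 0.0043). For *Relb* the difference in response was 0.07 ± 0.12 (95% interval -0.18 to 0.32, adjusted p = 0.761), so that neither a reduction nor a gain beyond that interval was measured. For *Nfkbiz* the response was larger in tolerized cells by 0.61 ± 0.16 (adjusted p = 0.00885), and with the marker scores as covariates the calls of *Nfkbiz* (0.50, adjusted p = 0.104) and *Nfkbie* (-0.44, adjusted p = 0.0705) were lost. Some T0 and TAg libraries but no N0 or NAg library carried Y-linked reads, so sex was not balanced in this interaction. With these reads as a covariate, 8 genes stayed called with a smaller response and 1 with a larger one.

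**Figure D3:**
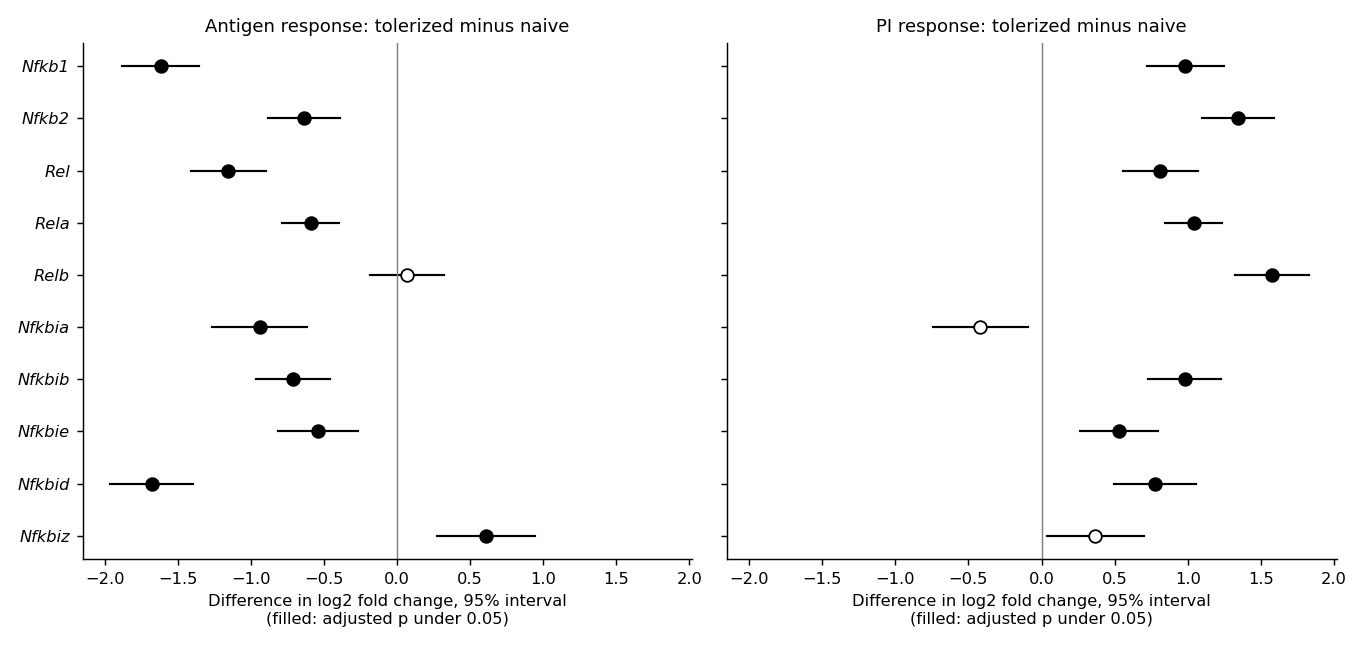
Difference in log2 fold change over rest, tolerized minus naive, with 95% intervals, for antigen (left) and PI (right), with filled symbols at an adjusted p under 0.05. After antigen 8 filled symbols lie below 0 and *Nfkbiz* above it, and after PI 8 filled symbols lie above 0.

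After PI, most of the family was higher in the tolerized state. In TPI against NPI, 7 genes were higher and 1 lower, against 18.2% and 19.7% of all tested genes, and *Nfkb1*, *Nfkb2* and *Relb* were at least 2-fold higher, as were 5.27% of all genes. All 5 subunits, *Nfkbib* and *Nfkbie* were higher, *Nfkbia* was lower, and *Nfkbid* and *Nfkbiz* did not pass the test. The median log2 difference was 0.79 over the 10 genes and -0.04 over all. Replicates did not overlap for 9 of them, against 50.5% of all genes. All NPI and TPI libraries carried Y-linked reads, so this comparison is within 1 sex as far as these reads show.

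The interaction for PI, (TPI against T0) against (NPI against N0), was called for 8 genes, all with the larger response in tolerized cells. Among all tested genes it was called positive for 12.7% and negative for 7.52%. It was largest for *Relb* (log2 1.58 ± 0.12) and *Nfkb2* (1.34 ± 0.12), and reached 0.78 ± 0.14 for *Nfkbid*, whose levels in TPI and NPI did not pass the test of a difference but which was lower in T0 than N0. *Nfkbia* had a difference of -0.42 ± 0.16 (95% interval -0.74 to -0.10, adjusted p = 0.0626) and *Nfkbiz* one of 0.37 ± 0.16 (0.03 to 0.70, adjusted p = 0.116), neither called. With DESeq2 the split was 8 larger and 1 smaller, *Nfkbia* then being called (-0.41, adjusted p = 0.0497). *Nfkbia* was also called without N0 replicate 2, T0 replicate 1, T0 replicate 2 or TPI replicate 1 (-0.50 to -0.48), and *Nfkbiz* without N0 replicate 1 (0.55, adjusted p = 0.00122). Both interactions use the same N0 and T0 libraries, so their values are not independent. Y-linked reads were in every NPI and no N0 library, but in every TPI and some T0 libraries. Sex therefore does not cancel in the PI interaction and cannot be told apart from the cell state there.

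The stimuli were compared within each cell state. In tolerized cells all 10 genes were higher in TPI than TAg, against 31.5% of all tested genes, from 2.0-fold for *Nfkb1* to 17.5-fold for *Nfkbid*. In naive cells 6 were higher and 3 lower in NPI than NAg, against 33.5% and 31.0%. The inhibitors *Nfkbiz* (6.32-fold), *Nfkbid* (3.19-fold), *Nfkbia* (2.69-fold) and *Nfkbie* (1.95-fold) were higher with PI. The subunits *Nfkb1* (3.03-fold), *Nfkb2* (1.69-fold) and *Relb* (1.28-fold) were lower with PI. *Rel* and *Rela* were higher by 0.26 and 0.18 on the log2 scale, and *Nfkbib* did not pass the test (0.10, 95% interval -0.06 to 0.26). The *Rel* difference was 0.01 (adjusted p = 0.946) with Y-linked reads as a covariate, and the calls of *Rel* (0.33), *Rela* (0.10) and *Relb* (-0.23) were lost with the marker scores. Leaving out 1 library lost *Rel* without NPI replicate 2 and *Rela* without NAg replicate 1, NAg replicate 3 or NPI replicate 2. The place of stimulation and the sex of the mice differ between NPI and NAg together with the stimulus, and these cannot be told apart by the design. Between TPI and TAg the place of stimulation likewise differs with the stimulus. Y-linked reads were in every TPI library but not in every TAg library.

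Levels were compared between genes as normalized counts per kilobase of merged exon. On this per-length scale the 5 subunits summed to 1757 ± 147 (SD, n = 3) in N0 and 1668 ± 13.4 in T0, and to 21017 ± 930.0 in NAg, 8875 ± 602 in TAg, 13107 ± 858 in NPI and 24602 ± 623 in TPI. *Nfkb1* was the most abundant subunit mRNA at rest and after antigen, and *Rel* after PI. The share of *Nfkb1* in the summed per-length level was 38.0% ± 2.13 (SD, n = 3) in N0 and 41.3% ± 1.21 in T0, was 54.3% ± 0.894 in NAg and 43.1% ± 1.56 in TAg, and 28.7% ± 0.855 in NPI and 31.1% ± 0.662 in TPI. The share of *Rel* went from 14.1% in N0 to 21.7% in NAg and 41.6% in NPI, and from 13.2% in T0 to 20.6% in TAg and 34.6% in TPI. The share of *Rela* was 25.0% in N0, 6.49% in NAg and 11.8% in NPI, and 24.5% in T0, 9.53% in TAg and 12.1% in TPI, although its own level rose. The pair of the alternative pathway, *Nfkb2* and *Relb*, made up 13.3% and 4.24% of the sum in NAg and 17.9% and 8.90% in TAg, and replicates of these groups did not overlap for either share. Their own mean per-length levels were not higher in TAg. They were 2791 in NAg and 1590 in TAg for *Nfkb2*, and 889 and 790 for *Relb*. These shares are ratios within a library and do not depend on the scaling between libraries, and no test was run on them.

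**Figure D4:**
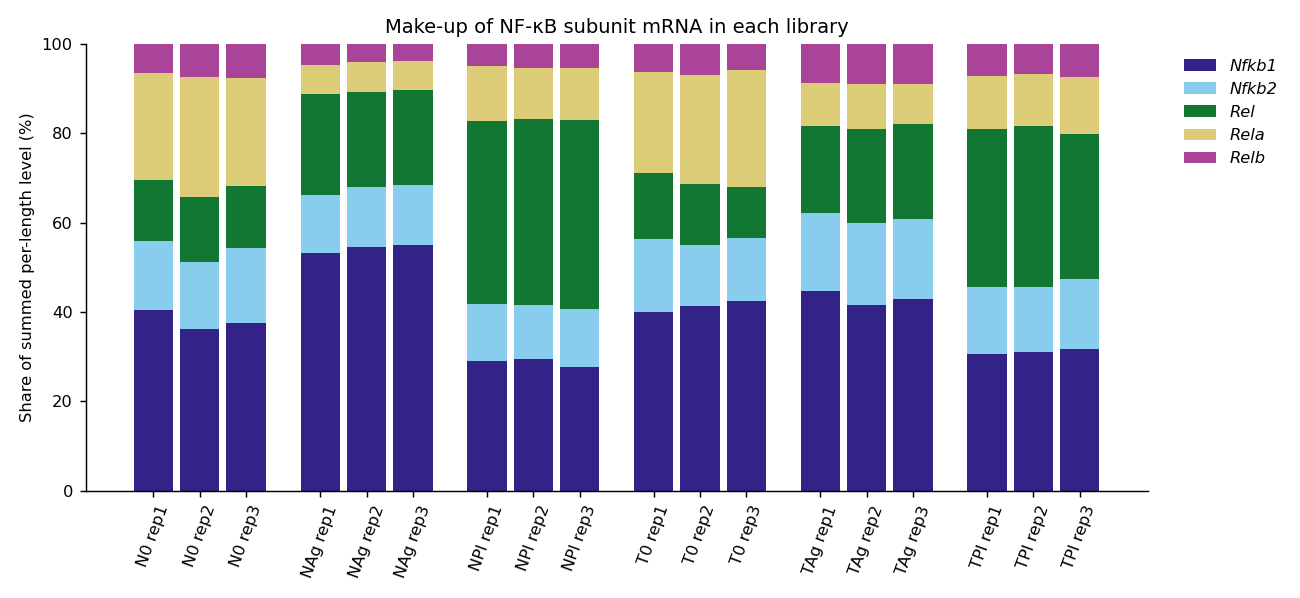
Share of each subunit in the summed per-length level (normalized count per kilobase of merged exon) of the 5 subunit genes, in percent, with 1 bar for each library. The *Nfkb1* part is widest in the NAg libraries, between 53.3% and 55.1%, and the *Rel* part in the NPI libraries, between 40.9% and 42.3%.

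The summed per-length levels of the inhibitors and of the subunits lay furthest apart after PI. The inhibitor sum takes in the atypical *Nfkbid* and *Nfkbiz*, so it is not a sum of the classical inhibitors alone. The inhibitors summed to 2363 ± 327 in N0, 21057 ± 816 in NAg and 64793 ± 213 in NPI, and to 2113 ± 163 in T0, 8988 ± 423 in TAg and 62335 ± 3146 in TPI. The ratio of summed inhibitors to summed subunits was 1.36 ± 0.280 in N0, 1.0 ± 0.04 in NAg, 1.27 ± 0.0900 in T0 and 1.01 ± 0.0221 in TAg. After PI it was 4.96 ± 0.341 in NPI (4.65 to 5.32) and 2.53 ± 0.0636 in TPI (2.48 to 2.60), without overlap. *Nfkbia* was the most abundant inhibitor per length at rest, with 39.9% ± 1.78 of the inhibitor sum in N0 and 45.9% ± 5.07 in T0. *Nfkbid* held 46.4% ± 1.13 of the sum in NAg but 20.6% ± 1.16 in TAg, and 48.1% ± 0.856 in NPI and 52.2% ± 1.54 in TPI. *Nfkbiz* held 12.7% in NPI and 13.7% in TPI, so the atypical genes made up most of the sum after PI. The largest per-length level of any member was that of *Nfkbid* in TPI, 32483 ± 661, and the smallest that of *Nfkbib* in T0, 101 ± 15, which overlapped N0. These are mRNA levels, and protein was not measured here.

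Over the 18 libraries, the genes whose pattern was most like that of each member were found by Pearson's r of log2 (normalized count + 1) among 10361 genes with a mean normalized count of at least 50. These r are descriptions over 18 libraries that share 6 group means, and they were high throughout, from 0.986 to 0.998 for the 3 nearest genes of each member. *Nfkb1* was most like *Map2k3* (0.993), *Phf6* (0.992) and *Btaf1* (0.991), and *Nfkb2* most like *Slc7a1* (0.993), *Nbn* (0.993) and *Itpkc* (0.993). *Rel* was nearest to *Nr4a3* (0.996), *Birc3* (0.995) and *Btg3* (0.994), *Rela* to *Zfp295* (0.994), *Scyl2* (0.992) and *Erbb2ip* (0.992), and *Relb* to *D16Ertd472e* (0.991), *Aebp2* (0.990) and *Rnf19a* (0.990). Among the inhibitors, *Nfkbia* was nearest to *Cd69* (0.997), *Slc2a1* (0.996) and *Ube2s* (0.995), and *Nfkbib* to *Qrich1* (0.996), *Dot1l* (0.994) and *Adss* (0.994). *Nfkbid* was nearest to *Csrnp1* (0.998), *Nr4a1* (0.995) and *BC031781* (0.995), *Nfkbie* to *Gmeb2* (0.990), *Wsb1* (0.988) and *Inpp5a* (0.988), and *Nfkbiz* to *Egr1* (0.996), *Gng5* (0.988) and *Ifrd1* (0.986). Within the family, r was highest between *Rel* and *Nfkbib* and between *Nfkb2* and *Relb* (0.989 each) and lowest between *Nfkb1* and *Nfkbiz* (0.648).

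The pathway around the family was described with 3 lists of textbook genes, 24 kinases and adaptors, 15 further regulators and 28 genes known as NF-κB targets in lymphocytes, all of them tested. *Birc3*, *Traf1*, *Tnfaip3*, *Tnip1* and *Bcl3* stand in 2 lists each. In TAg against NAg, 9 kinases and adaptors were higher and 7 lower, 7 regulators were higher and 3 lower, and 8 targets were higher and 13 lower, beside the 20.9% higher and 18.5% lower among all tested genes. In TPI against NPI the counts were 13 higher and 5 lower for kinases and adaptors, 6 and 7 for regulators and 15 and 3 for targets, beside 18.2% and 19.7%. Median log2 differences in TAg were 0.02, 0.26 and -0.29 for the 3 lists in that order, and in TPI 0.23, -0.12 and 0.44.

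Among the kinases and adaptors with the largest log2 differences, *Traf5* (0.92 ± 0.13, adjusted p = 5.54e-06) and *Ikbke* (0.89 ± 0.10, adjusted p = 5.79e-07), which encodes an IκB kinase-related kinase, were higher in TAg than NAg. Both genes fell with antigen in both cell states, and fell less in tolerized cells. Mean normalized counts of *Traf5* were 721 in N0, 127 in NAg, 657 in T0 and 242 in TAg. Those of *Ikbke* were 5709 in N0, 1325 in NAg, 4827 in T0 and 2463 in TAg. *Birc3*, which encodes a ubiquitin ligase of the pathway, was lower (-0.78 ± 0.08, adjusted p = 5.26e-08). In TPI against NPI, the protease gene *Malt1* (1.49 ± 0.10, adjusted p = 1.24e-10) and the adaptor genes *Bcl10* (0.89 ± 0.08, adjusted p = 3.72e-09) and *Traf1* (1.45 ± 0.12, adjusted p = 5.26e-08) were higher, while *Tab1* was lower (-1.12 ± 0.13, adjusted p = 2.41e-07). The mean normalized count of *Malt1* was 5006 ± 501 in NPI and 14080.0 ± 657 in TPI, and that of *Bcl10* 1302 ± 162 and 2414 ± 14.8.

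Among the regulators, *Tnip3*, whose product binds A20, stood apart. Its mean normalized count was 5.69 ± 1.40 in N0 and 28.5 ± 1.73 in T0, 695 ± 186 in NAg and 3369 ± 161 in TAg, and 61.6 ± 4.11 in NPI and 414 ± 87.1 in TPI, so that tolerized cells were above naive cells in each condition without overlap. The log2 difference was 2.28 ± 0.16 in TAg against NAg (adjusted p = 1.02e-08) and 2.75 ± 0.20 in TPI against NPI (adjusted p = 1.49e-08). *Tnfaip8l2* (1.24) and *Pdlim2* (0.85) were higher in TAg than NAg, and *Zc3h12a* (-0.85), which encodes the RNase Regnase-1, was lower. Unlike *Tnip3*, *Tnfaip8l2* and *Pdlim2* fell with antigen in both cell states, and fell less in tolerized cells. Mean normalized counts of *Tnfaip8l2* were 506 in N0, 35.6 in NAg, 421 in T0 and 84.8 in TAg. Those of *Pdlim2* were 701 in N0, 161 in NAg, 628 in T0 and 290 in TAg. In TPI *N4bp1* (1.25) and *Tnip2* (0.83) were higher than in NPI and *Tnfaip8l2* (-0.84) was lower.

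Of the 28 targets, 25 were higher in NAg than N0 and 24 in TAg than T0, against 32.1% and 29.9% of all tested genes. The antigen interaction was called negative for 11 targets and positive for 3, beside 7.09% and 14.6% of all genes. Some targets fell with antigen, so the sign does not always give the size of the response. *Cd40lg*, the gene of the CD40 ligand, and the stress-response gene *Gadd45b* differed most among the targets called, by -3.57 ± 0.22 and -1.87 ± 0.22 on the log2 scale. The mean normalized count of *Cd40lg* rose from 969 in N0 to 7855 in NAg. In tolerized cells it did not rise, with 406 in T0 and 277 in TAg. The level of *Gadd45b* was 5832 ± 596 in NAg and 1681 ± 316 in TAg, but 16112 ± 1136 in NPI and 13407 ± 863 in TPI. The PI interaction was called positive for 8 targets and negative for 2, beside 12.7% and 7.52% of all genes. *Tnfrsf4*, the gene of the costimulatory receptor OX40, was higher in TPI than NPI by 2.18 ± 0.15 on the log2 scale. Its mean normalized count was 852 in NPI and 3850 in TPI. *Irf1* was 2.74-fold lower in TPI than NPI.

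**Figure D5:**
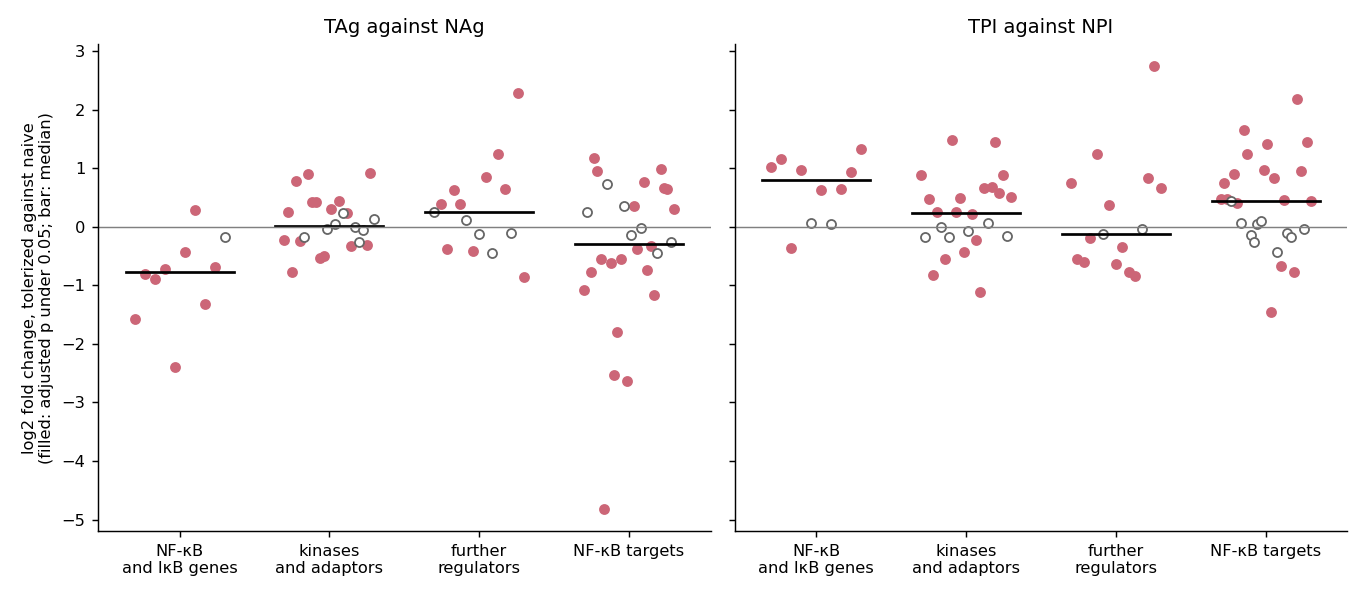
Log2 fold change of tolerized against naive cells after antigen (left) and PI (right) for the 10 NF-κB and IκB genes and the 3 pathway lists, with 1 point for each gene, filled at an adjusted p under 0.05, and a bar at the median. The median of the 10 genes is -0.76 after antigen and 0.79 after PI, while that of the kinases and adaptors is 0.02 and 0.23.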

How the data were processed

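RNA was sequenced from 18 libraries, 3 biological replicates in each of 6 groups. Per the submitters' processing notes, which name TopHat2 2.1.1, HTSeq 0.9.1, edgeR 3.24, DESeq2 1.18 and the mm9 build, the authors aligned the reads, and the deposited values are raw counts per Ensembl gene without normalization. The strand setting and overlap mode of the counting are not given in the sources used here. Total counts were 10758571 to 24119489 per library.

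Counts were analysed in R 4.3.3 with edgeR 4.0.16: TMM scaling, a filter keeping genes with a mean normalized count of at least 3 in 1 or more groups, 1 quasi-likelihood model of 6 group means, and contrasts with Benjamini-Hochberg adjustment, called at 0.05. Errors of log2 fold changes are standard errors from this model, and intervals are 95%. Per-length levels used merged exons of GENCODE for NCBIM37. Promoter windows came from RefSeq (GRCm38.p6) and were matched by symbol. Protein sequences were not used here. The genes named are the 10 members, up to 4 called genes with the largest changes from each pathway list in the comparison described, and the 3 genes most like each member. A gene that this rule names is not reported here. The members and lists were chosen with earlier results of these data known. Alternatives were DESeq2 1.42.0, its size factors in edgeR, no filter on low counts, a fit of the compared groups alone, the replicate number as a block, marker scores or Y-linked reads as covariates, leaving out each library, and another gene length. The programs were tested on simulated data.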

Additional observations from a re-analysis of the deposited data

Results flagged for a closer look

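The response over rest differed between tolerized and naive cells, by the interaction term of the edgeR model, for 9 of the 10 genes after antigen and for 8 after PI. After antigen 8 had a smaller and 1 a larger response in tolerized cells. The antigen interaction was called negative for 7.09% and positive for 14.6% of all tested genes. After PI all 8 were larger, and the PI interaction was called positive for 12.7% and negative for 7.52% of all tested genes. Values are the log2 response of tolerized cells minus that of naive cells, with the standard error.

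After antigen the difference among the subunits was -1.62 ± 0.13 for *Nfkb1* (adjusted p = 3.94e-09), -0.63 ± 0.12 for *Nfkb2* (adjusted p = 0.000383), -1.15 ± 0.12 for *Rel* (adjusted p = 4.41e-07) and -0.59 ± 0.09 for *Rela* (adjusted p = 6.23e-05). Among the inhibitors it was -0.94 ± 0.16 for *Nfkbia* (adjusted p = 0.000139), -0.71 ± 0.12 for *Nfkbib* (adjusted p = 0.000155), -1.68 ± 0.14 for *Nfkbid* (adjusted p = 5.74e-09), -0.54 ± 0.13 for *Nfkbie* (adjusted p = 0.0043) and 0.61 ± 0.16 for *Nfkbiz* (adjusted p = 0.00885), the last being the 1 gene with a larger response in tolerized cells.

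After PI the difference among the subunits was 0.98 ± 0.13 for *Nfkb1* (adjusted p = 5.37e-06), 1.34 ± 0.12 for *Nfkb2* (adjusted p = 4.14e-08), 0.81 ± 0.12 for *Rel* (adjusted p = 4.12e-05), 1.04 ± 0.09 for *Rela* (adjusted p = 4.54e-08) and 1.58 ± 0.12 for *Relb* (adjusted p = 6.03e-09). Among the inhibitors it was 0.98 ± 0.12 for *Nfkbib* (adjusted p = 3e-06), 0.78 ± 0.14 for *Nfkbid* (adjusted p = 0.000181) and 0.53 ± 0.13 for *Nfkbie* (adjusted p = 0.00448). For *Nfkb1*, *Nfkb2*, *Rel*, *Rela*, *Nfkbib*, *Nfkbid* and *Nfkbie* the difference was negative after antigen and positive after PI. The N0 and T0 libraries enter both differences, and the contrast between the stimuli was not tested. By the Y-linked reads, sex was not balanced over the groups that enter either difference. In the PI difference, PI and culture cannot be told apart.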

How the results depend on the processing

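Of 770 values of the 10 genes under the alternatives, 745 kept their direction and their side of the threshold, 4 reversed, 14 lost and 7 gained a call, and of 780 values with 1 library left out 756 kept both, 7 reversed, 9 lost and 8 gained a call. All 10 genes stayed called higher in NAg, TAg, NPI and TPI over rest throughout. The reversals were of small uncalled differences: *Nfkbib* in T0 against N0 was 0.0029 with DESeq2, 0.0039 with its size factors and 0.060 with Y-linked reads as a covariate, and *Nfkbie* was -0.087 with marker scores. With 1 library left out, T0 against N0 ran from -0.065 to 0.13 for *Nfkb1*, -0.12 to 0.14 for *Nfkbia* and -0.14 to 0.060 for *Nfkbib*, and TPI against NPI from -0.0020 to 0.11 for *Nfkbiz*.

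The number of members higher in TAg than NAg was 0 in place of 1 (*Nfkbiz*) with DESeq2, its size factors, no filter, marker scores or Y-linked reads. The number lower in T0 than N0 was 0 with marker scores and 3 with Y-linked reads. With marker scores the number lower in TPI than NPI was 0 and the number with a larger antigen response in tolerized cells 0. The number with a smaller PI response in tolerized cells was 1 in place of 0 with DESeq2 and with Y-linked reads (*Nfkbia*, -0.52, adjusted p = 0.0362). Leaving out 1 library gave 1 to 2 lower in T0 than N0, 0 to 1 higher in TAg than NAg, 0 to 1 lower in TPI than NPI and 0 to 1 with a smaller PI response. The cause of these changes was not tested.

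Over all genes, marker scores lowered the called genes to 59 from 3519 in T0 against N0, 4300 from 6794 in TAg against NAg, 2762 from 6537 in TPI against NPI, 6422 from 10577 in NPI against N0, 6038 from 11768 in TPI against T0, 6504 from 11111 in NPI against NAg and 6666 from 11004 in TPI against TAg, Y-linked reads to 1834 in T0 against N0, and leaving out N0 replicate 2 to 2284 there.

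Replicate numbers did not pair the samples: in no comparison did all same-numbered pairs correlate above 0.1. With the replicate block the number higher in TAg than NAg was 0 (*Nfkbiz*, 0.29, adjusted p = 0.0596), and no other call of a member changed.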
